A study of Mus musculus with 56 samples.

Results

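Mice that breathed cigarette smoke for 24 weeks were compared with mice that breathed smoke for 12 weeks and were then sham-exposed for another 12 weeks. The members of the comparison are the 6 arrays labelled 24 weeks of smoke and the 6 arrays of the cessation arm labelled FA. These 12 of the 56 arrays of the study were taken by their labels. The comparison itself was chosen with earlier results of these data known. The tissue was gastrocnemius, a mixed calf muscle, from female C57BL/6 mice without a transgene or deletion. Smoke was 4% mainstream smoke given nose-only for 2 hours a day on 5 days a week, and sham exposure was air given the same way. The abbreviation FA is not explained in the labels, nor is RA, the name of the other cessation arm. RNA came from 6 mice drawn at random from each of the treatment groups compared, and the titles of the 12 arrays carry different identifiers. The labels do not give the hour of day at which muscle was collected.

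The most different genes belong in part to the circadian clock, the transcriptional loop with a daily period that runs in nearly every cell, muscle included. The proteins CLOCK and ARNTL (BMAL1), or NPAS2 in place of CLOCK, bind DNA together and switch on the PER and CRY repressors, which feed back on them. They also switch on the nuclear receptors NR1D1 and NR1D2 (REV-ERB alpha and beta), which repress Arntl, while the related receptor RORA activates it. The level of these transcripts therefore depends on the hour at which tissue is taken.

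Values are log2(intensity + 16), with 1 probe set per gene, the one with the highest mean. The tested set was the 12351 genes above the 40th percentile of mean level. Differences are 24 weeks of smoke minus cessation FA on this log2 scale, so that they understate the change of dim genes. They are given ± SE from limma fitted over the 55 mice of all 9 groups of the study, with p-values adjusted over all genes tested by the Benjamini-Hochberg method and a threshold of 0.05. The p-values measure the spread between these mice.

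Some arrays carried lymph node RNA. Glycam1, a ligand for L-selectin made by the vessels of lymph nodes, had an intensity of at least 6944 on smoke replicates 1, 2 and 6 and on cessation FA replicate 4, and of at most 264 on the other 8 arrays. The mean level of 9 lymphocyte genes was 8.62 or higher on these 4 arrays and 6.54 or lower on the others. All 10 muscle identity genes were above the filter in both groups. Smoke replicate 6 stood furthest apart, with a mean correlation of 0.826 with the other arrays. Array medians ran from 62.5 to 77.5 in intensity. Precision is limited by how many arrays there are. Most results are therefore given with all 12 arrays and without the 4 Glycam1-high arrays, which leaves 3 smoke mice against 5 cessation mice. A value given for no named set is from all 12 arrays. Because the tissue is bulk muscle, fewer cells of a type and less RNA per cell cannot be told apart.

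With all arrays, 438 genes (3.55% of those tested) differed between continued smoke and cessation, 197 (1.6%) higher and 241 (1.95%) lower in the smoke mice. In 78 genes (0.632%) all smoke mice lay above all cessation mice, and in 82 (0.664%) all lay below. Without the Glycam1-high arrays, 234 genes (1.89%) differed, of which 147 (1.19%) were higher and 87 (0.704%) lower in smoke. The fits shared 114 genes, 69 that rose and 45 that fell, which is 26.03% of the first list and 48.7% of the second. All 438 genes kept their sign in the smaller set, which reuses 8 of the 12 arrays that chose them, so such agreement is largely built in. Without smoke replicate 6 alone, 126 genes (1.02%) passed, and 67 genes passed in all 3 fits. The changes were mostly small, with a median size of 0.42 among the 438 genes.

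These counts rested on the estimate of spread shared over the 9 groups. With both groups fitted alone, limma called 6 genes, Stc2, 1700029J07Rik, Dnaja1, Noxred1, Frat1 and Dusp10. Without the Glycam1-high arrays that fit called 0 genes, with 1854 genes at an unadjusted p under 0.05.

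**Figure D1:**
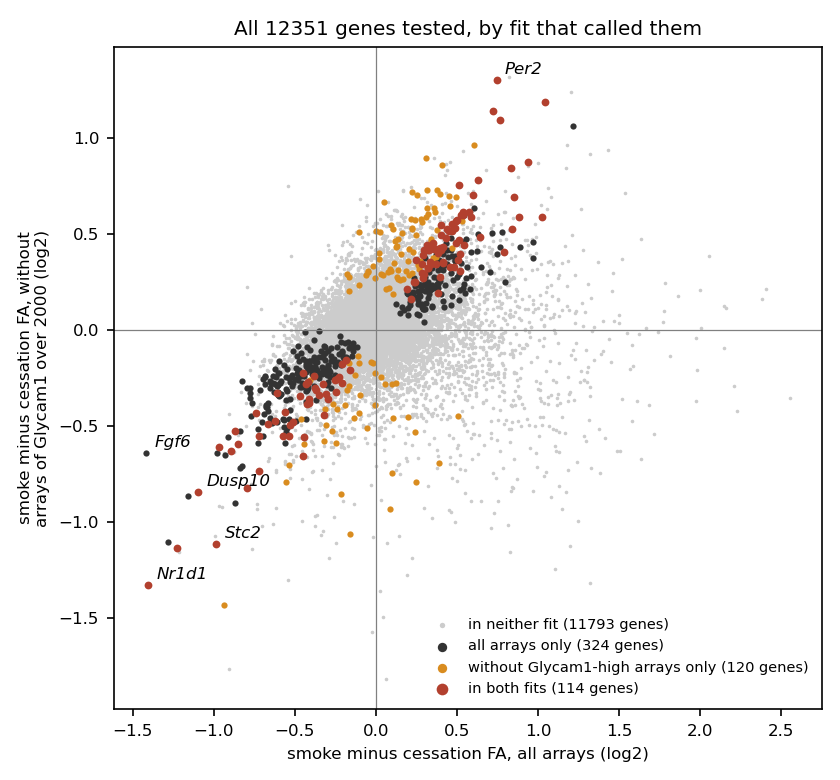
Each point is 1 of the 12351 genes tested, with its difference (24 weeks of smoke minus cessation FA, log2) over all 12 arrays on the x axis and without the 4 arrays of Glycam1 over 2000 on the y axis. The 114 genes called in both fits lie along the diagonal, with Nr1d1 lowest and Per2 highest of those labelled. A cloud of genes to the right of 0 on the x axis lies near 0 on the y axis.

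Nr1d1, the REV-ERB alpha repressor of the clock, was the clearest difference. Its lowest, median and highest levels were 7.63, 8.87 and 9.27 in the smoke mice and 9.76, 10.19 and 10.66 in the cessation mice. All 6 smoke mice lay below all 6 cessation mice, and smoke replicate 6 was the lowest by a wide margin. The means were 8.77 ± 0.58 and 10.18 ± 0.37 (SD, n = 6 each), a difference of -1.41 ± 0.16 or 2.65-fold (adjusted p = 9.8e-08). Without the Glycam1-high arrays the 3 smoke mice lay between 8.86 and 8.87, and the difference was -1.33 ± 0.15 (adjusted p = 1.1e-06).

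Dusp10 encodes a phosphatase that switches off the stress-activated kinases p38 and JNK. Its levels were 9.67, 10.47 and 10.81 (lowest, median, highest) in smoke and 11.37, 11.45 and 11.66 in cessation, again without overlap. The cessation mice were tightly grouped, with an SD of 0.11 against 0.41 in smoke. The difference was -1.10 ± 0.13 (2.14-fold, adjusted p = 2.6e-07), and -0.84 ± 0.12 without the Glycam1-high arrays (adjusted p = 3.7e-05). A second Dusp10 probe set gave -1.15 ± 0.18.

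Fgf6, a fibroblast growth factor made mainly in skeletal muscle, was less stable. Its levels were 4.96, 6.88 and 7.92 in smoke and 7.85, 8.04 and 8.70 in cessation. The smoke mice spread widely, and 5 of the 6 lay below every cessation mouse. The difference was -1.42 ± 0.28 (adjusted p = 0.0024). The 3 lowest smoke values, 4.96, 6.24 and 6.45, were all on Glycam1-high arrays, and without these arrays the difference was -0.64 ± 0.19 and the call was lost (adjusted p = 0.071). The part of lymph node RNA in this difference was not tested.

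**Figure D2:**
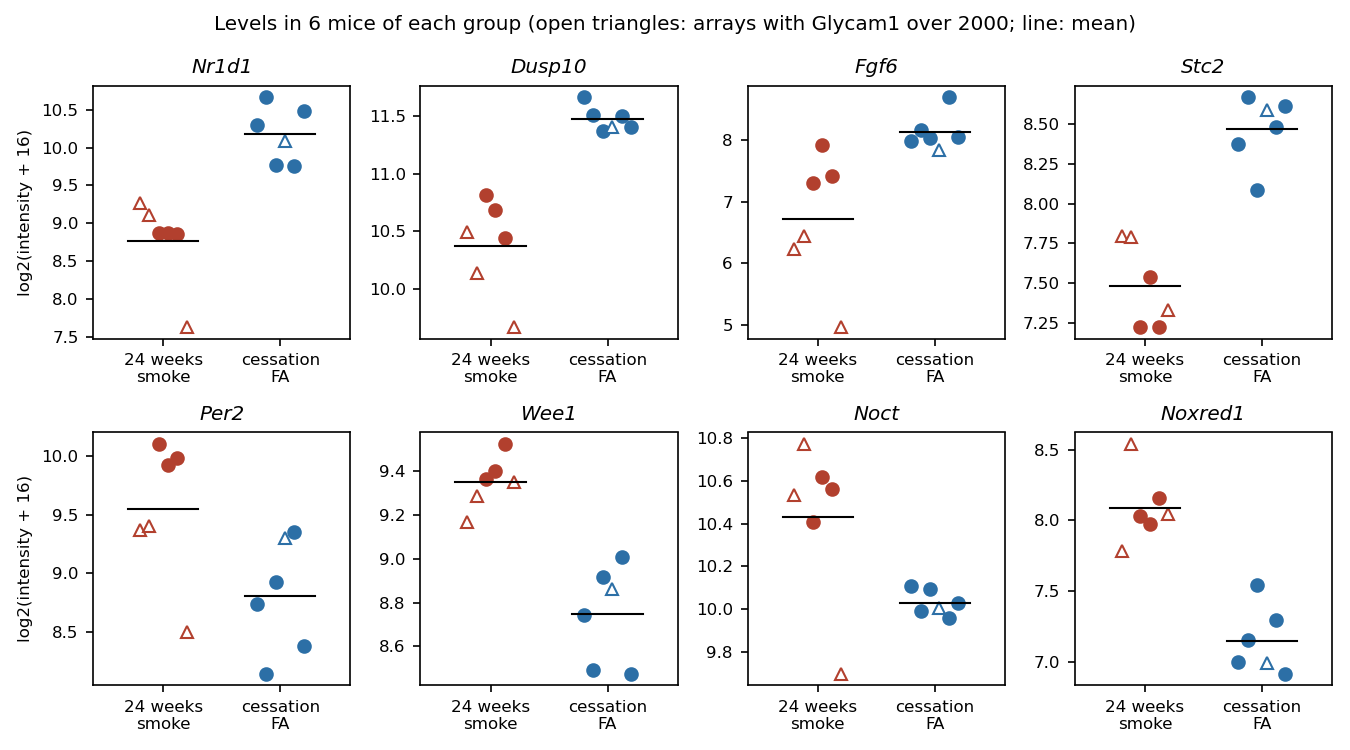
Levels as log2(intensity + 16) of 8 genes in the 6 mice given 24 weeks of smoke and the 6 mice of the cessation FA arm, with 1 symbol per mouse and a line at the group mean. Nr1d1, Dusp10 and Stc2 were lower in every smoke mouse and Wee1 and Noxred1 higher in every smoke mouse; smoke replicate 6, an open triangle, is the lowest smoke value for Nr1d1, Dusp10, Fgf6, Per2 and Noct.

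The side that had moved could be read against the 24-week air mice, which both comparisons share. Nr1d1 stood at 9.90 ± 0.20 (SD, n = 6) in air. The smoke mice were below it (smoke minus air -1.13, adjusted p = 4.6e-05), and cessation minus air was 0.28 (adjusted p = 0.79). Dusp10 was likewise lower in smoke than in air (-0.83, adjusted p = 0.00034), with a cessation minus air difference of 0.26 (adjusted p = 0.70). In the set without high Glycam1, smoke minus air was -1.06 for Nr1d1 (adjusted p = 0.00026) and -0.59 for Dusp10 (adjusted p = 0.024). For Fgf6 neither arm passed against air, at -0.65 for smoke and 0.77 for cessation with all arrays and at 0.01 and 0.65 without the Glycam1-high ones. Across all 9 groups, the 24-week smoke mice had the lowest mean of each of these 3 genes with all arrays, and of Nr1d1 (8.87) and Dusp10 (10.64) without the Glycam1-high ones. For Fgf6 their mean in the smaller set was 7.55, beside 7.53 in 12-week air and 7.54 in 24-week air. With all arrays the next lowest mean was 9.63 for Nr1d1 (12 weeks of smoke), 11.12 for Dusp10 (2 weeks of smoke) and 7.37 for Fgf6 (24 weeks of air). Over all genes, 58 (0.47%) passed between 24 weeks of smoke and air, and 10 (0.081%) between cessation FA and air.

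**Figure D3:**
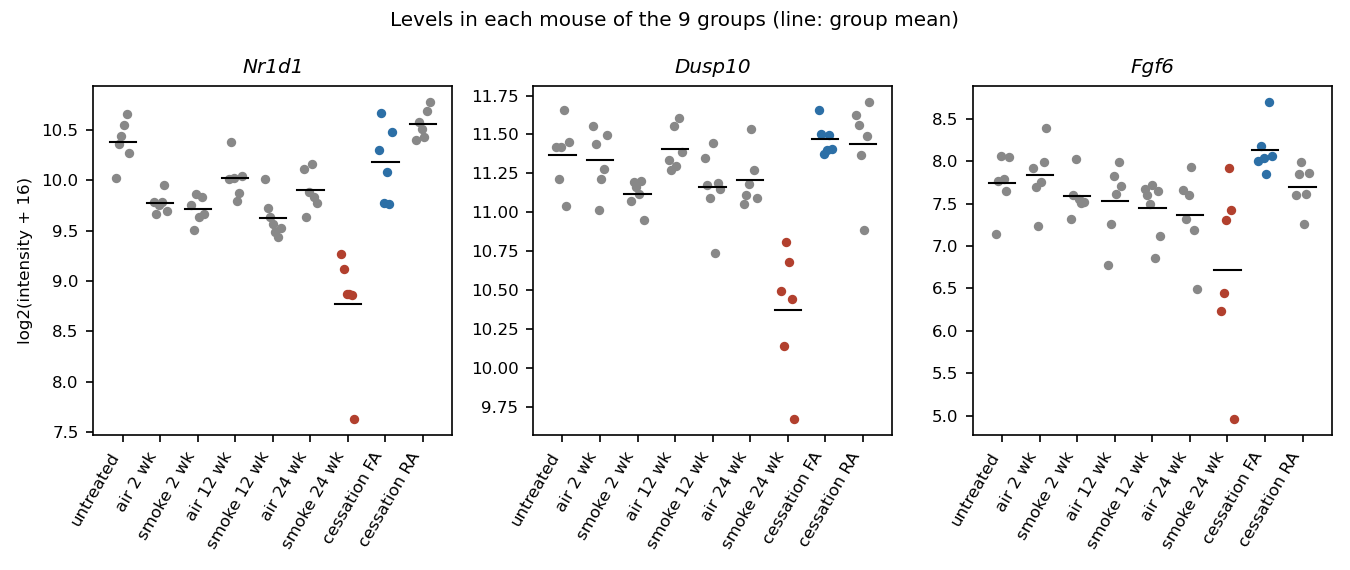
Levels of Nr1d1, Dusp10 and Fgf6 as log2(intensity + 16) in each mouse of the 9 groups of the study, with a line at each group mean. With all arrays shown, the 24-week smoke mice (red) had the lowest group mean for each gene, which for Fgf6 did not hold without the Glycam1-high arrays (7.55 against 7.53 in 12-week air). For Nr1d1 the highest of them, 9.27, lay below every mouse of the other groups.

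Other clock genes differed too, in both directions. Of the 4 genes of the activating arm, Clock fell and none rose; of 8 repressors of that arm, 1 rose and 1 fell; of 3 nuclear receptors tested, Nr1d1 fell; and of 10 output genes, 2 rose and 1 fell. In the smaller set, Nr1d1, Per2, Cry2, Noct and Wee1 passed, and 4 of these 5 rose. The shares of all genes that passed were 3.55% with all arrays and 1.89% in the smaller set.

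Clock, the histone acetyltransferase subunit of the activator, had levels of 9.68, 10.12 and 10.20 in smoke and 10.34, 10.53 and 10.57 in cessation, without overlap. The difference was -0.47 ± 0.09 (adjusted p = 0.003), and -0.30 ± 0.10 without the Glycam1-high arrays, no longer past the threshold (adjusted p = 0.10). Of the 3 other Clock probe sets, 2 gave -0.50 and -0.59 and the dimmest gave 0.21. Arntl, its partner, had a difference of -0.43 ± 0.16 (adjusted p = 0.086) and Npas2 one of -0.56 ± 0.20 (adjusted p = 0.086).

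Per2, a period repressor, moved the opposite way to Nr1d1. Its levels were 8.50, 9.67 and 10.11 in smoke and 8.14, 8.83 and 9.36 in cessation. All smoke mice but replicate 6 lay above every cessation mouse. The difference was 0.74 ± 0.20 (adjusted p = 0.031). It grew to 1.30 ± 0.23 (2.46-fold, adjusted p = 0.0013) without the Glycam1-high arrays, where the 3 smoke mice stood at 9.93 to 10.11 and the 5 cessation mice at 8.14 to 9.36.

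Cry2, a cryptochrome repressor, passed without the Glycam1-high arrays, at 0.31 ± 0.07 (adjusted p = 0.019), and not with all arrays (-0.05). Its value on smoke replicate 6 was 8.96 against 9.90 or more in the other smoke mice. Bhlhe41, which encodes a repressor that competes for the same DNA element, fell by 0.73 ± 0.19 (adjusted p = 0.026), and was not past the threshold without those arrays (-0.51, adjusted p = 0.20). A dimmer Bhlhe41 probe set gave -0.21. Per1 differed by 0.22, Ciart by -0.12 and Bhlhe40 by -0.22, none past the threshold. Without the Glycam1-high arrays these genes gave 0.34, 0.05 and -0.19.

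Probe sets of some clock genes disagreed. The brightest Per3 probe set gave 0.16 ± 0.14, while 3 others above the filter gave -0.67, -0.67 and -0.72. The brightest Rora probe set gave -0.17 ± 0.10, and 2 dimmer ones near it in level gave -0.40 and -0.56. In the set without the Glycam1-high arrays they gave 0.01, -0.22 and -0.24. All dimmer Rora probe sets above the filter ran from -0.83 ± 0.26 to -0.16 ± 0.19 with all arrays. Without the Glycam1-high arrays they ran from -0.42 to 0.16. Nr1d2, the paralog of Nr1d1, differed by -0.13 ± 0.06 (adjusted p = 0.18) and by 0.05 without the Glycam1-high arrays, while a dimmer probe set gave -0.51 ± 0.19 and -0.22. Tef and Nampt, both clock outputs, gave -0.02 and -0.17 on their brightest probe sets and -0.51 ± 0.15 and -0.65 ± 0.22 on a dimmer one.

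Among clock outputs, Wee1, the kinase that holds cells before mitosis, had levels of 9.17, 9.36 and 9.52 in smoke and 8.48, 8.80 and 9.01 in cessation. Each smoke mouse was above each cessation mouse. The smoke mice on Glycam1-high arrays had the lowest smoke levels, below the 9.36 to 9.52 of the other 3. The difference was 0.60 ± 0.10 (adjusted p = 0.00038) with all arrays and 0.70 ± 0.12 (adjusted p = 0.0014) without those 4.

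Noct, nocturnin, a phosphatase of NADP with a strong daily rhythm, was above every cessation mouse in 5 of 6 smoke mice. Its difference was 0.40 ± 0.11 (adjusted p = 0.026), and 0.49 ± 0.11 without the Glycam1-high arrays (adjusted p = 0.011). Lpin1, a phosphatidate phosphatase of lipid synthesis, fell by 0.28 ± 0.08 (adjusted p = 0.044), a call lost without those arrays (-0.16, adjusted p = 0.12). Nfil3, a repressor of D-box genes, had a difference of 0.56 ± 0.19 (adjusted p = 0.072), and Dbp, the activator at the same element, one of -0.44 ± 0.14 (adjusted p = 0.054). A dimmer Dbp probe set gave -0.70 ± 0.16. Without the Glycam1-high arrays the brighter and the dimmer Dbp probe sets gave -0.29 and -0.22.

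**Figure D4:**
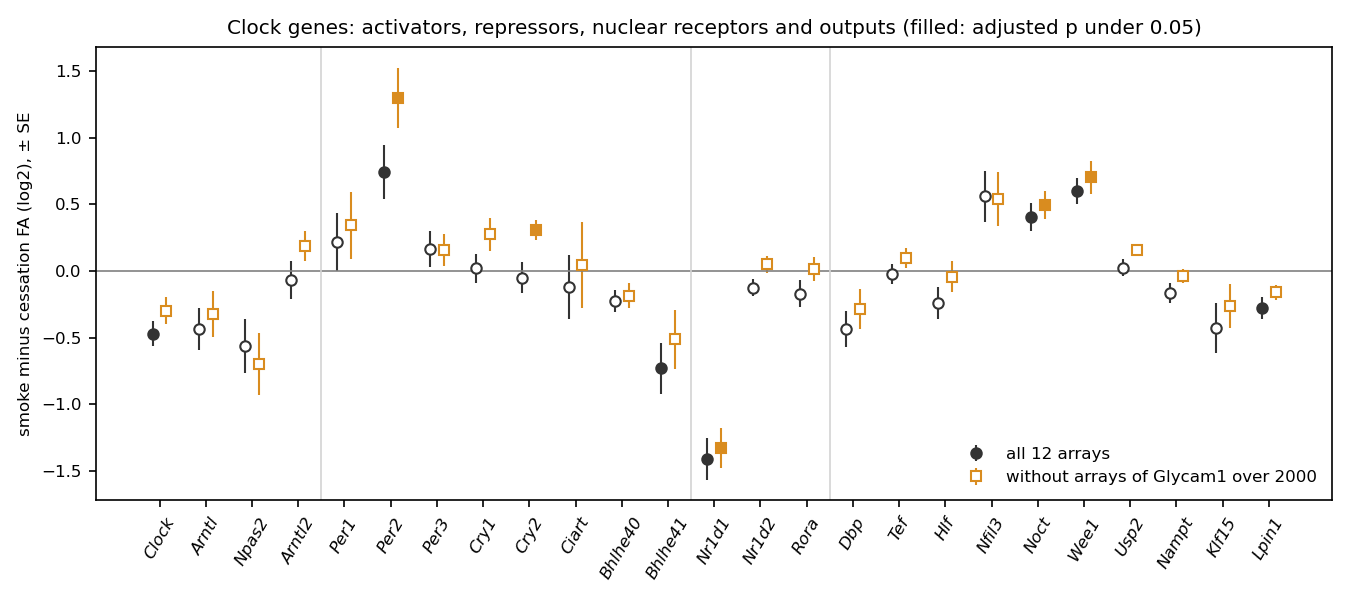
Differences (24 weeks of smoke minus cessation FA, log2, ± SE) of 25 clock genes, ordered as activators, repressors, nuclear receptors and outputs, with all 12 arrays (circles) and without the 4 arrays of Glycam1 over 2000 (squares). Filled symbols have an adjusted p under 0.05; Nr1d1 is the lowest and Per2 the highest, and Per2, Nr1d1, Noct and Wee1 are filled in both fits.

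Set against the 24-week air mice, these genes did not share 1 pattern with Nr1d1. Arntl was higher in cessation FA than in air by 0.73 (adjusted p = 0.039), with a smoke minus air difference of 0.29 (adjusted p = 0.23). Wee1 was lower in cessation than in air by 0.48 on the log2 scale (cessation minus air -0.48, adjusted p = 0.039), with smoke minus air at 0.12 (adjusted p = 0.44). Noct showed -0.49 for cessation minus air (adjusted p = 0.039) and -0.09 for smoke minus air (adjusted p = 0.61). For Per2 neither arm passed, at -0.71 for cessation and 0.04 for smoke. Cessation minus air still passed without the Glycam1-high arrays for Arntl, Wee1 and Noct (0.69, -0.49 and -0.44, adjusted p = 0.030 each).

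With all arrays, the other cessation arm, RA, lay further out than cessation FA for several clock genes. Mean levels in RA were 10.56 ± 0.15 for Nr1d1, 7.93 ± 0.36 for Per2, 8.32 ± 0.14 for Wee1 and 9.90 ± 0.33 for Arntl (SD, n = 6). In cessation FA they were 10.18 ± 0.37, 8.81 ± 0.49, 8.75 ± 0.22 and 9.43 ± 0.16 in the same order. The air mice of 24 weeks had 9.90 ± 0.20, 9.51 ± 0.27, 9.23 ± 0.22 and 8.70 ± 0.35. Replicates 1, 4 and 5 of RA were on Glycam1-high arrays. Without such arrays the Nr1d1 means were 10.62 ± 0.14 in RA (SD, n = 3) and 10.20 ± 0.41 in cessation FA (SD, n = 5). The difference between the 2 cessation arms was not tested here. The hour of collection is not in the labels, so hour and exposure cannot be told apart for the clock genes.

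Promoters were read from RefSeq (build GRCm38.p6, 250 bases before to 50 after the start) for the 3 leading genes and the clock genes past the threshold in either fit. The table held 8 of these 10 genes; Per2 and Wee1 were not matched. They were searched on both strands for the E-box CACGTG bound by the CLOCK partners, for AGGTCA, the core element of many nuclear receptors including NR1D1 and RORA, and for the cAMP response element TGACGTCA; none of the 3 contains another. Of 32851 promoters of the same length, 7.15% held the E-box, 16.3% AGGTCA and 1.79% TGACGTCA. The 4 shown are Nr1d1, which had the clearest difference, and 3 genes that fell with it and hold a match near their listed start. The capitals mark matches, and each is printed 5′ to 3′ on the strand of its gene. Nr1d1 lies on the minus strand at chr11:98775328-98775627, Fgf6 on the plus strand at chr6:127015292-127015591, Bhlhe41 on the minus strand at chr6:145865371-145865670 and Lpin1 on the minus strand at chr12:16610917-16611216.
Nr1d1: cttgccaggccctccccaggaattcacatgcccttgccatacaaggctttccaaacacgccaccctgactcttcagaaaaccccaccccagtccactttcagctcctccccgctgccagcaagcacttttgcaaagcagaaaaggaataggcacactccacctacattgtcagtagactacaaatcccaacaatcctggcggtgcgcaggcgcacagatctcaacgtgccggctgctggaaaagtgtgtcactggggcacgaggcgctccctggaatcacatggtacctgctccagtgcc
Fgf6: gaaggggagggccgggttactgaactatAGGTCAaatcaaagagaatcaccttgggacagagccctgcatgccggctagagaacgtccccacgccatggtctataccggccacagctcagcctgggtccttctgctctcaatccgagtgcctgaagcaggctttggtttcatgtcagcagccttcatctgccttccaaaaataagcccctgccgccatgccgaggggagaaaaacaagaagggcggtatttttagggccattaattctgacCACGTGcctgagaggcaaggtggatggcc
Bhlhe41: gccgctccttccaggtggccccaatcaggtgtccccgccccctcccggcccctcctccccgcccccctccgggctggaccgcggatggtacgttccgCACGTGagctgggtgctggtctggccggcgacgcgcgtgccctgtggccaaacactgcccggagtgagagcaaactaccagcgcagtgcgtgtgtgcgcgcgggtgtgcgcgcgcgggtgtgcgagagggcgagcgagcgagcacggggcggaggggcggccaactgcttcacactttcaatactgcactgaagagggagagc
Lpin1: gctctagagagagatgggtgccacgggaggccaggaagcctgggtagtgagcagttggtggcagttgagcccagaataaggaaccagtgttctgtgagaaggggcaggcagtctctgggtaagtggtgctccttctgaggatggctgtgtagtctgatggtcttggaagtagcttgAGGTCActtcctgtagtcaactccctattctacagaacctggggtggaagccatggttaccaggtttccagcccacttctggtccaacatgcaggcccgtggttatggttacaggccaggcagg
The Fgf6 window holds AGGTCA at -222 and an E-box at 22, counted from the start site. The Bhlhe41 window holds an E-box at -153 and the Lpin1 window AGGTCA at -74. Clock has 3 listed starts, of which 1 holds the nuclear receptor element, at -119 on the opposite strand. The windows of Nr1d1, Dusp10, Cry2 and Noct hold none of the 3 words, which says only that these letters are not in these windows. A match here is a description of the sequence and was not set against binding data.

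Few relatives of Dusp10 and Fgf6 passed the threshold on their brightest probe set. The shares of all genes that passed were 3.55% with all arrays and 1.89% without the Glycam1-high ones. Of 13 MAP kinase phosphatases tested, Dusp10 was the 1 that passed, in both fits, and the median of the list was -0.15 with all arrays and -0.11 without the Glycam1-high ones. Dusp8, a phosphatase of JNK and p38, had a difference of -0.73 ± 0.22 (adjusted p = 0.052), and -0.28 without those arrays. Of 9 stress-activated kinase genes, Mapk8, which encodes JNK1, fell by 0.33 ± 0.09 (adjusted p = 0.029), with -0.14 and no call without those arrays (adjusted p = 0.098). Of 13 FGF ligands and receptors, Fgf6 fell and Fgfr3 rose. Fgf9 gave -0.48 on its brightest probe set and -0.79 ± 0.23 on a dimmer one, with -0.21 and -0.54 without the Glycam1-high arrays. Fgf1 gave -0.38 on its brightest and -0.80 ± 0.21 and -0.33 ± 0.26 on dimmer ones, with -0.08, -0.57 and -0.10 without those arrays. The Fgfr1 probe sets gave -0.33, -0.44 and -0.42, and 0.01, -0.12 and -0.13 without those arrays.

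Fgfr3, an FGF receptor, had levels of 7.17, 7.80 and 7.89 in smoke and 6.94, 7.10 and 7.36 in cessation. The lowest 2 smoke mice, both on Glycam1-high arrays, overlapped with the cessation mice. The difference was 0.51 ± 0.14 (adjusted p = 0.031), and 0.75 ± 0.16 without those arrays (adjusted p = 0.011).

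Myogenin (Myog), a factor that drives muscle differentiation and rises after loss of innervation, passed in the fit without the Glycam1-high arrays (0.96 ± 0.25, adjusted p = 0.035). It was the 1 to pass of 11 genes tested of the myogenic list, which holds the myosin genes Myh3 and Myh8 beside factors. With all arrays its difference was 0.60 ± 0.27 (adjusted p = 0.14). The shares of all genes that passed were 1.89% without the Glycam1-high arrays and 3.55% with all. In that smaller set 10 of the 11 genes were above 0, with a median of 0.10, against 3 of 11 and a median of -0.12 with all arrays. None of 16 nerve-muscle synapse and class IIa HDAC genes passed in either fit, with 7 and 3 of them at an unadjusted p under 0.05 by limma, beside 27.7% and 18.8% of all genes.

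Beyond these families, Stc2, which encodes the secreted glycoprotein stanniocalcin 2, was among the largest falls in both fits. Its levels were 7.22, 7.44 and 7.80 in smoke and 8.09, 8.54 and 8.67 in cessation, with no overlap. The difference was -0.98 ± 0.18 (adjusted p = 0.0011), and -1.12 ± 0.19 without the Glycam1-high arrays (adjusted p = 0.0013). A dimmer Stc2 probe set above the filter gave -0.44.

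Frat1, which encodes a GSK3-binding protein of the Wnt pathway, was chosen after its values were seen. It stood at 6.55, 6.92 and 7.13 in smoke and 7.53, 7.61 and 7.89 in cessation, again without overlap. Its difference was -0.80 ± 0.11 (adjusted p = 4.7e-06), and -0.82 without the Glycam1-high arrays (adjusted p = 1.8e-05). Its paralog Frat2, also chosen after its values were seen, fell by 0.77 ± 0.14 (adjusted p = 0.0013), with -0.45 and no call without those arrays (adjusted p = 0.061).

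Smox, spermine oxidase, was the 1 of 7 polyamine genes that passed with all arrays, beside 3.55% of all genes. All 6 smoke mice, at 8.94 to 10.47, lay below all 6 cessation mice, at 10.58 to 11.13. The difference was -0.93 ± 0.18 (adjusted p = 0.0019), and -0.65 ± 0.19 without the Glycam1-high arrays (adjusted p = 0.059).

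Mrln, which encodes myoregulin, a micropeptide that inhibits the calcium pump of the sarcoplasmic reticulum, fell by 0.72 ± 0.12 (adjusted p = 0.0006) and by 0.55 without those arrays (adjusted p = 0.0043). D630024D03Rik, a transcript of no known role here, had a difference of -1.23 ± 0.23 (adjusted p = 0.0013) and kept it at -1.13 without those arrays (adjusted p = 0.00021). The largest other falls with all arrays were BE949265, Spsb4 and Gm11266, at -1.28, -1.16 and -0.98. In the smaller set of mice they had -1.10, -0.87 and -0.64, with no call (adjusted p = 0.053, 0.13 and 0.096).

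Over the 12 arrays the genes whose level was most like that of Nr1d1 were Dnm3 (Pearson r = 0.95), Mrln (0.94), D630024D03Rik (0.94), Tab2 (0.94) and Galnt15 (0.93). These correlations describe arrays that share groups and the low values of smoke replicate 6, and over the 8 arrays without high Glycam1 they ran from 0.88 for D630024D03Rik to 0.95 for Mrln.

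Among the rises, Noxred1, named for an NADP-dependent oxidoreductase domain, stood at 7.79, 8.04 and 8.54 in smoke and 6.92, 7.07 and 7.54 in cessation. Every smoke mouse was above every cessation mouse. The difference was 0.94 ± 0.14 (adjusted p = 6.6e-05), and 0.87 ± 0.17 without the Glycam1-high arrays (adjusted p = 0.0039). The transcript 1700029J07Rik rose by 0.83 ± 0.14 (adjusted p = 0.0006) and by 0.84 without those arrays (adjusted p = 0.0074), with the groups again apart.

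Nrip1, which encodes RIP140, a corepressor of nuclear receptors that restrains oxidative metabolism in muscle, was chosen after its values were seen. Its levels were 11.92, 12.33 and 12.38 in smoke and 11.53, 11.69 and 11.83 in cessation. All smoke mice were above all cessation mice. The difference was 0.53 ± 0.08 (adjusted p = 4.2e-05), and 0.60 ± 0.09 without the Glycam1-high arrays (adjusted p = 0.00026). Its cessation mice were lower than the air mice (cessation minus air -0.38, adjusted p = 0.039), with smoke minus air at 0.15 (adjusted p = 0.22).

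Rbm12b1, an RNA-binding motif gene, rose by 0.63 ± 0.11 (adjusted p = 0.001) and by 0.78 without the Glycam1-high arrays (adjusted p = 0.00033). A second Rbm12b1 probe set gave 0.11 ± 0.19 and 0.0056. Lonrf3, a RING finger gene, rose by 0.72 ± 0.21 (adjusted p = 0.044), and by 1.14 ± 0.21 without those arrays (adjusted p = 0.0024). Smoke replicate 6, at 6.41, lay below the cessation mice. A dimmer Lonrf3 probe set gave 0.15 ± 0.12, and 0.28 without the Glycam1-high arrays. Slc20a1, a sodium-phosphate cotransporter, rose by 0.88 ± 0.16 (adjusted p = 0.0012) and by 0.59 without those arrays (adjusted p = 0.024). Pnmt, which makes adrenaline, and Matn2, a matrix protein, passed without the Glycam1-high arrays and not with all, at 0.90 (adjusted p = 0.031) and 0.86 (adjusted p = 0.049).

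Several of the largest rises with all arrays were highest on smoke replicate 6. Serpini1, Sfi1, Gm14321, Ddx11 and 2700038G22Rik rose by 0.97, 0.97, 0.89, 0.85 and 1.02. Without smoke replicate 6 none of these 5 passed, at differences from 0.56 for Serpini1 to 0.78 for Sfi1. Without all 4 Glycam1-high arrays, Ddx11 (0.69, adjusted p = 0.013) and 2700038G22Rik (0.59, adjusted p = 0.042) passed, and Serpini1, Sfi1 and Gm14321 gave 0.37, 0.46 and 0.43 without a call. A second probe set gave -0.05 for Sfi1 and 0.36 for Serpini1 with all arrays, and -0.11 for Ddx11 without the Glycam1-high ones. The part of its lymph node RNA in these values was not tested.

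The stress and signalling lists gave 1 or 2 genes each. Of all genes tested, 3.55% passed with all arrays and 1.89% without the Glycam1-high ones. Of 12 heat shock genes, Hsp90aa1 and Dnajb1 rose, by 0.40 ± 0.10 (adjusted p = 0.024) and 0.62 ± 0.18 (adjusted p = 0.044), and Hsp90aa1 also rose without the Glycam1-high arrays (0.42, adjusted p = 0.030). Of 16 glucocorticoid response genes, Tsc22d3, the leucine zipper GILZ, rose by 0.30 ± 0.09 (adjusted p = 0.048), and had 0.37 ± 0.11 without those arrays, not past the threshold (adjusted p = 0.066). Its dimmer probe sets gave 0.16 ± 0.12, 0.03 ± 0.09 and -0.12 ± 0.14 with all arrays. Without the Glycam1-high ones they gave 0.26, 0.24 and 0.19. Zbtb16, another of the 16, passed without the Glycam1-high arrays (0.40) and not with all (0.02). The Zbtb16 probe set tested may also bind other transcripts, and its dimmer probe sets gave -0.06 and 0.11 without the Glycam1-high arrays. Of 9 cytokine and STAT genes, Bcl6, a transcriptional repressor, rose by 0.40 ± 0.09 (adjusted p = 0.0076) and by 0.43 without those arrays (adjusted p = 0.019). Of 10 NRF2 genes, which answer to oxidants, Nfe2l2 itself rose by 0.24 ± 0.07 with all arrays (adjusted p = 0.041), and Osgin1 by 0.61 ± 0.14 without the Glycam1-high ones (adjusted p = 0.016). A much dimmer Nfe2l2 probe set gave -0.14 ± 0.16 with all arrays.

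Of 25 fatty acid oxidation genes, Ppargc1a, the coactivator of mitochondrial biogenesis, passed without the Glycam1-high arrays (0.52 ± 0.12, adjusted p = 0.015), with 0.00 in the full set. Its probe set may also bind other transcripts, and 4 further probe sets gave 0.34 to 0.59 in the smaller set. Of 16 glucose and glycogen genes, Tbc1d4, a regulator of glucose transporter traffic, fell by 0.41 ± 0.11 (adjusted p = 0.026), and was not past the threshold without those arrays (-0.36, adjusted p = 0.14). The shares of all genes that passed were 3.55% with all arrays and 1.89% without the Glycam1-high ones. None of 60 respiratory chain genes passed in either fit, with 2 and 4 at an unadjusted p under 0.05 by limma, and their medians were -0.05 and -0.03. None of 11 atrophy and FOXO genes passed, with 6 and 0 at an unadjusted p under 0.05, against the same shares of 27.7% and 18.8% over all genes.

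Vascular genes were lower in single cases, beside 3.55% of all genes called with all arrays and 1.89% without the Glycam1-high ones. Cdh5, the cadherin of endothelial junctions, fell by 0.42 ± 0.10 (adjusted p = 0.016) and by 0.38 ± 0.09 without the Glycam1-high arrays (adjusted p = 0.015), the 1 of 16 endothelial genes to pass. Kdr, the main VEGF receptor, passed without those arrays (-0.59 ± 0.15, adjusted p = 0.034; -0.45 and 0.056 with all). Angpt1, a ligand that stabilises vessels, fell by 0.61 ± 0.17 with all arrays (adjusted p = 0.039) and had -0.29 without them (adjusted p = 0.14). The medians of the endothelial list were -0.07 and -0.12, beside -0.01 and 0.01 over all genes.

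Slow fibre genes, which mark the oxidative type I fibres, had negative differences without a call. None of the 11 passed the threshold by limma, while 11 had an unadjusted p under 0.05 with all arrays and 8 without the Glycam1-high ones, but 1 without smoke replicate 6 alone. Over all genes 27.7%, 18.8% and 13.3% had such a p in these 3 fits. The mean level of the list was 12.17, 11.62, 12.16, 11.32, 10.63 and 10.40 in smoke replicates 1 to 6 and ran from 11.45 to 12.32 in cessation, so smoke replicates 1 and 3 lay among the higher cessation mice. All 11 differences were below 0 in both fits, with medians of -0.51 and -0.55 (-0.38 without smoke replicate 6). Myh7, slow myosin heavy chain, and Tnni1, slow troponin I, both named after their values were seen, had differences of -0.51 ± 0.22 (adjusted p = 0.13) and -0.99 ± 0.38 (adjusted p = 0.10). For Tnni1 the levels were 8.25, 10.00 and 11.37 in smoke and 9.91, 10.92 and 11.50 in cessation, so the groups overlapped and 3 smoke mice lay below every cessation mouse. None of 12 fast fibre genes passed, with 1 and 0 at an unadjusted p under 0.05, and their medians were -0.02 and -0.06.

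Interferon-response genes, which cells switch on in viral infection, were high in 1 cessation mouse. Of the 16 tested, Rsad2 (viperin) passed with all arrays (-0.87 ± 0.26, adjusted p = 0.047) and Bst2 (tetherin) without the Glycam1-high ones (-1.06 ± 0.27, adjusted p = 0.033). The shares of all genes that passed in these fits were 3.55% and 1.89%. All 16 were below 0 without those arrays, with a median of -0.93, against a median of -0.27 with all. Iigp1, an interferon-inducible GTPase named after its values were seen, reached 12.94 in cessation FA replicate 3 and at most 9.25 in the other cessation mice. The 3 smoke mice of the smaller set stood at 7.72, 7.94 and 8.37. Without cessation FA replicate 3 as well, a choice made after seeing the data, the median was -0.40, 15 of 16 genes were below 0, and neither Rsad2 (-0.54, adjusted p = 0.31) nor Bst2 (-0.71, adjusted p = 0.079) passed. Retnla, a product of alternatively activated macrophages, was also highest in that mouse at 12.11, and its call without the Glycam1-high arrays (-1.43, adjusted p = 0.027) was lost without it (-1.08, adjusted p = 0.079). Without the Glycam1-high arrays, the summed intensity of 8 macrophage markers ran from 4102 to 5084 in the smoke mice and from 3885 to 11833 in the cessation mice, with Itgam below the filter in both. None of the 7 macrophage markers tested passed in either fit. Of them, 1 and 0 had an unadjusted p under 0.05 by limma, beside 27.7% and 18.8% of all genes. The part of immune cells in these values was not tested.

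Gene groups of dividing and secretory cells differed between the fits with and without the Glycam1-high arrays. The median of 13 cell cycle genes was 0.82 with all arrays and -0.13 without the Glycam1-high ones, and that of 9 lymphocyte markers was 1.71 and -0.09. Without smoke replicate 6 alone, these medians were 0.12 and 0.89. For 20 unfolded protein response genes, a list that holds Xbp1, the median was 0.31 with all arrays. It was 0.11 without smoke replicate 6 and 0.04 without the Glycam1-high arrays. The summed intensity of 13 lymphocyte markers ran from 203 to 35300 in smoke and from 190 to 4029 in cessation, and from 203 to 354 and 190 to 1047 without those arrays. With all arrays, the group means of Cd79a, Cd8b1, Cd4, Blk and Ltb were below the filter level in cessation, and none was in smoke. The part of lymph node RNA in these differences was not tested. Mcm3, a subunit of the replicative helicase, rose by 0.70 and Xbp1, the factor of secretory cells, by 0.52 (adjusted p = 0.047 each). Both were highest on smoke replicate 6 and lost the call without the Glycam1-high arrays (0.30 and 0.21). Aurka, a mitotic kinase, went the other way, at -0.53 ± 0.15 (adjusted p = 0.037), with -0.46 and no call without those arrays (adjusted p = 0.053). Hhex, a homeobox factor of blood and vessel cells, and Naaa, a lysosomal amidase, passed without those arrays and not with all, at -0.93 and -0.85. Both were higher on smoke replicates 1, 2 and 6 than on the other 3. A second Naaa probe set of similar level gave -0.31 without the Glycam1-high arrays.

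The adipocyte marker mean ran from 8.77 to 11.05 in smoke and from 8.36 to 10.34 in cessation, with summed intensities of 14452 to 36767 and 12063 to 26065 over 9 genes and Cidea below the filter in both groups. The median difference of its 8 genes tested was 0.57 with all arrays and 0.21 without the Glycam1-high ones. Lipogenesis genes, which fat and muscle both express, gave 9 of 13 differences above 0 with all arrays and 12 of 13 without those, with medians of 0.30 and 0.28. None of them passed by limma, and 1 in each fit had an unadjusted p under 0.05, beside 27.7% and 18.8% of all genes. The part of fat cells in this difference was not tested.

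**Figure D5:**
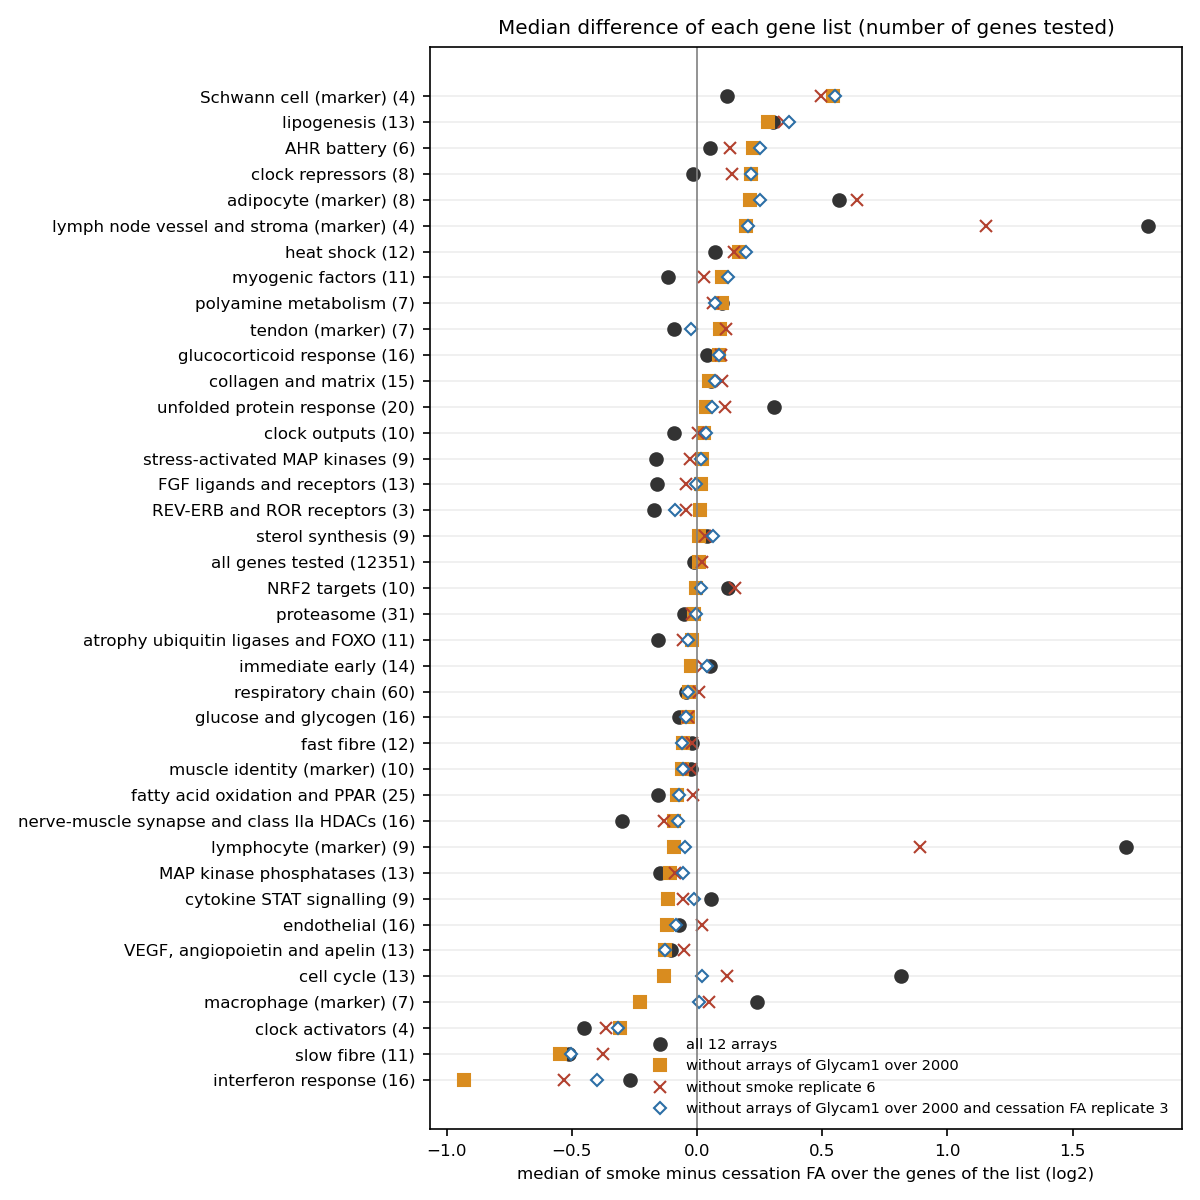
Median difference (24 weeks of smoke minus cessation FA, log2) of each gene list with 3 or more genes tested, and of all genes, with the number of genes in brackets; symbols give all 12 arrays, the set without the 4 arrays of Glycam1 over 2000, the set without smoke replicate 6, and the set without both the Glycam1-high arrays and cessation FA replicate 3. Lymphocyte, lymph node and cell cycle medians move to near 0 without the Glycam1-high arrays, the interferon median moves from -0.93 to -0.40 without cessation FA replicate 3, and the slow fibre median lies between -0.38 and -0.55 throughout.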

How the data were processed

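Muscle RNA of 56 arrays (55 mice, 9 groups) had been measured on arrays of 45037 probe sets. The deposited value table holds intensities on a linear scale; the authors' background correction and scaling are not stated in the sources used here. Values under -15 (5 of 2522070) were set to -15, 16 was added and log2 taken. Probe sets with 1 gene symbol (34945) were used, the highest mean of each gene (18193), and 12351 genes above the 40th percentile (log2 5.71) were tested. Arrays of 1 mouse were averaged. limma 3.58.1 (R 4.3.3) fitted 9 group means, with lmFit and eBayes, adjusted by Benjamini-Hochberg; the code was tested on simulated data. Alternatives changed the filter, pseudocount, scaling, probe set rule, groups fitted and arrays kept. The named genes were the 3 leading genes, the 8 largest changes each way in either fit, up to 4 called genes of each list, members of the clock, phosphatase, FGF and myogenic lists, and the 5 most like Nr1d1, with exceptions named in the text. The comparison, members and lists were chosen with earlier results of these data known.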

Additional observations from a re-analysis of the deposited data

Results flagged for a closer look

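Within each group of 6 mice, the highest and the lowest value of each named gene were compared with the rest by Dixon's ratio, the gap to the nearest mouse divided by the range of the group. Of 146 gene and group pairs, 23 exceeded the critical value for 6 mice (0.625), where chance alone flags about 1 in 20 groups. Smoke replicate 6 gave 19 of the 23 and cessation FA replicate 3 gave the other 4. The array of smoke replicate 6 carried lymph node RNA, with the highest lymphocyte marker mean of the 12 arrays, 11.65; the part of this RNA in these values was not tested.

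Smoke replicate 6 was far below the other smoke mice for clock genes. The ratios were 0.75 for Nr1d1 (7.63 against 8.86 or more), 0.653 for Per1, 0.671 for Cry2, 0.672 for Nr1d2, 0.847 for Rora and 0.659 for Noct. It was also the lowest for Dusp8 (0.673), Mapk8 (0.709), Spsb4 (0.715), Gm11266 (0.726), Ppargc1a (0.687), Angpt1 (0.667), Mrln (0.741), Tab2 (0.734) and Galnt15 (0.644). It was the highest for Serpini1 (0.708), Ddx11 (0.696), Xbp1 (0.754) and Mcm3 (0.824). Without this mouse the Nr1d1 difference was -1.18 (adjusted p = 2.3e-08).

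Cessation FA replicate 3 was the lowest of its group for Rora (0.673) and the highest for Serpini1 (0.736), Retnla (0.698) and Iigp1 (0.863).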

How the results depend on the processing

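The count of 438 genes was the value that moved most. Dropping the filter on dim genes gave 284, testing every probe set 859, and the other settings 1515 at an adjusted p under 0.1, 220 with the lymphocyte mean as a covariate, 234 without the Glycam1-high arrays and 1299 without arrays whose identifiers lie outside the main run. With both groups fitted alone it was 6, and 0 without the Glycam1-high arrays, where the count of 234 was also 0 (1854 genes at an unadjusted p under 0.05 by limma). Leaving out 1 mouse gave 126 to 1625 genes for the first count, with 126 without smoke replicate 6, 1625 without smoke replicate 4, 1360 when smoke replicate 3 was dropped and 1322 when replicate 5 was, and 192, 153, 250 and 193 when cessation FA replicates 1, 2, 3 and 6 were. It gave 48 to 564 for the second, with 48 when smoke replicate 5 was dropped and 60 when replicate 4 was, 129, 107 and 148 for cessation FA replicates 1, 2 and 3, and 564 without cessation FA replicate 5. Nr1d1 ran from -1.51 to -1.18 over all alternatives and lost its call in the 2 fits of both groups alone (-1.41, adjusted p = 0.16, and -1.33, adjusted p = 0.10). Dusp10 lost it in the second of these (-0.84, adjusted p = 0.075). Fgf6 lost it in both (-1.42, adjusted p = 0.43, and -0.64, adjusted p = 0.20), without the Glycam1-high arrays (-0.64), and without those and cessation FA replicate 3 (-0.68, adjusted p = 0.082), the 1 alternative chosen after seeing the data. Leaving out 1 mouse gave -1.66 to -1.07 for Fgf6, past the threshold each time.

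The 46 named genes past the threshold with all arrays kept their sign in all of 1327 values, of which 333 were not past it. The alternatives reuse the arrays that chose these genes, so agreement in sign is largely built in. Of 27 named genes not past it, 39 of 780 values changed sign. Without the Glycam1-high arrays, and with both groups fitted alone there, these were Ciart (0.046), Cry2 (0.31), Hhex (-0.93), Nr1d2 (0.049), Ppargc1a (0.52) and Rora (0.013). Without cessation FA replicate 3 as well, they were Cry2 (0.30), Hhex (-0.86), Nr1d2 (0.049) and Ppargc1a (0.53). With array weights they were Cry2 (0.28), Hhex (-0.78), Nr1d2 (0.027) and Ppargc1a (0.48). With the lymphocyte covariate they were Cry2 (0.045), Hhex (-0.51) and Ppargc1a (0.17). Per3 gave -0.32 as the mean of its probe sets, and Ppargc1a 0.0038 with a pseudocount of 64. Bst2 gave 0.011 when arrays were dropped by identifier prefix. Leaving out 1 mouse, or the Glycam1-high arrays and cessation FA replicate 3, gave -0.13 to 0.30 for Cry2, -0.36 to 0.034 for Ciart, -0.16 to 0.049 for Nr1d2, -0.71 to 0.14 for Bst2, -0.86 to 0.40 for Hhex and -0.14 to 0.53 for Ppargc1a. No paired analysis was possible because the replicates were numbered in accession order.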
